A study of Homo sapiens with 12 samples.

Results

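Aminoacyl-tRNA synthetases load tRNAs with their amino acids, and 35 of the 43236 gene symbols counted in this series encode the synthetases described here. They were listed by symbol, without a threshold on their values. The 19 cytosolic members carry symbols that end in 1, together with *FARSA* and *FARSB*, the 2 subunits of the cytosolic phenylalanyl enzyme, and the 16 mitochondrial members carry symbols that end in 2. The 35 symbols do not cover every human synthetase. RNA sequencing of polyA RNA was performed on MNNG/HOS cells, labelled HOS-MNNG, a chemically transformed human osteosarcoma line. The 4 groups were DMSO for 6 h, 300 nM NXP800 for 6 h, DMSO for 24 h and 300 nM NXP800 for 24 h, with 3 libraries in each group, and NXP800 is an oral small molecule that the study describes as an activator of the kinase GCN2. All groups are the same line, DMSO is the solvent control of each time, and the labels do not say whether replicates were separate cultures, so that the p-values measure the spread between these libraries. The comparisons ask whether the transcripts of the charging enzymes differed between drug and solvent at each time, and whether cytosolic and mitochondrial enzymes moved alike.

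A synthetase recognises its amino acid and the matching tRNAs and joins them, and this step decides which amino acid a codon stands for. Cytosolic enzymes serve the ribosomes of the cytoplasm, several of them held together in a multi-synthetase complex, while a separate nuclear-encoded set is imported into mitochondria and serves the mitochondrial ribosome. GCN2, encoded by *EIF2AK4*, senses uncharged tRNA, phosphorylates eIF2α and so favours translation of ATF4, a bZIP factor known to act on many amino acid transport, synthesis and charging genes.

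Libraries held between 30810614 and 31947656 counts on genes, and the members held 2281 to 34652 counts per library for the cytosolic genes and 239 to 3795 for the mitochondrial genes. Read pairs on no annotated gene were 6.66 to 8.14% of a library at 6 h and 2.73 to 3.67% at 24 h, with DMSO and NXP800 libraries mixed in each range. The mesenchymal markers *VIM* (3338 to 5891 CPM), *SPARC* (91.7 to 615 CPM), *COL1A1* (143 to 566 CPM) and *RUNX2* (20.7 to 42.5 CPM) were present in every library, whereas *COL1A2* and *ALPL* stayed at or below 0.378 CPM. Of these markers 3 passed the test at both times, *SPARC* (0.578-fold at 6 h and 0.247-fold at 24 h) and *COL1A1* (0.706-fold and 0.590-fold) downward at both times and *RUNX2* (1.64-fold and 1.29-fold) upward, while *VIM* was lower by the test at 24 h (0.718-fold), and their part in the synthetase values was not tested. Of the markers of other cell types, *CDH1* and *PTPRC* did not pass 0.154 CPM, *PECAM1* did not pass 0.914 CPM, and the epithelial marker *EPCAM* lay between 5.59 and 10.2 CPM, highest after 24 h of NXP800. CPM are counts relative to the library total, scaled by TMM, and in such bulk libraries fewer cells of a kind and less RNA per cell cannot be told apart. Within the GCN2 and ATF4 pathway, *EIF2AK4* decreased (log2 fold change −0.62 at 6 h and −0.48 at 24 h), *ATF4* increased (0.66 and 0.51) and *DDIT3*, which encodes the ATF4 target CHOP, increased (3.05 and 3.01). Also read here, *GCN1* did not pass the test at either time (−0.19 and −0.17), and *IMPACT* increased (0.53 and 0.43). *ASNS* increased as well (2.82 and 1.92), at low group means of 0.508 to 4.39 CPM. Reads ambiguous between genes entered no gene count, and their part in this low level was not tested.

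Cytosolic enzymes were expressed at higher levels than mitochondrial enzymes before any drug effect. On a scale of CPM per kilobase of the MANE Select transcript, which allows levels to be compared between genes, the cytosolic members in DMSO at 6 h had a median of 93.4 and ranged from 21.0 for *EPRS1* to 229 for *KARS1*, the lysyl enzyme of both compartments. The mitochondrial members had a median of 14.1 on this scale and ranged from 3.28 for *EARS2* to 42.2 for *TARS2*, so that the ranges overlapped between 21.0 and 42.2. After 6 h of NXP800 the highest level per length was that of *SARS1*, 361 ± 17.3 (SD, n = 3), and after 24 h that of *WARS1*, 398 ± 30.5 (SD, n = 3), whereas *TARS2* remained the highest mitochondrial member in all 4 groups. In DMSO at 6 h *SARS1* (112 ± 10.5) lay between *GARS1* (136 ± 8.04) and *RARS1* (105 ± 7.04), and it did not differ from *RARS1* beyond their SDs.

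**Figure D1:**
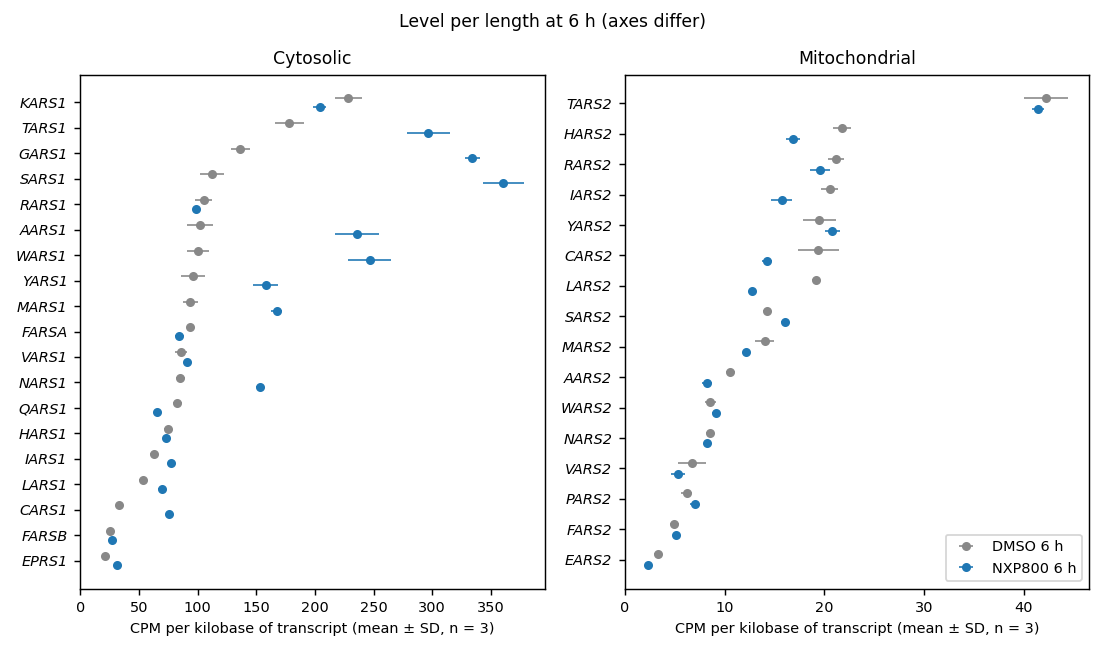
Level of each member in CPM per kilobase of transcript (x axis, linear, a different range in each panel) in DMSO at 6 h (grey) and NXP800 at 6 h (blue), as mean ± SD of 3 libraries, with genes ordered by the DMSO level. *SARS1* moved from 112 to 361 and passed *KARS1*, the highest cytosolic member in DMSO at 229, while *LARS2* fell from 19.2 to 12.8.

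At 6 h, NXP800 raised most cytosolic synthetase transcripts. Of the 19 cytosolic members 12 increased, or 63.2%, where 25% of the 15979 genes tested increased, and 1 member decreased where 27.8% of all genes did. The median log2 fold change of the cytosolic members was 0.60, against −0.05 over all genes tested. All 3 NXP800 libraries lay above all 3 DMSO libraries for 12 cytosolic members, a pattern seen for 29.3% of all genes at 6 h, and below them for 3, a pattern seen for 32.7% of all genes. Changes over 2-fold were found for 5 members, *SARS1*, *GARS1*, *WARS1*, *CARS1* and *AARS1*, all upward. The share of all genes with changes over 2-fold was not counted, so this number has no background beside it. With the replicate number as a block, cytosolic decreases numbered 3 in place of 1, *FARSA* (adjusted p = 0.0120) and *KARS1* (adjusted p = 0.00747) being added, and *FARSB* joined the increases (adjusted p = 0.0411). The block raised the calls over all genes as well, to 28.9% increased and 33.4% decreased at 6 h.

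*SARS1*, the seryl enzyme, on chromosome 1 from 109213893 to 109238182 (plus strand, GRCh38), showed the largest increase at 6 h. Its levels were 222, 231 and 193 CPM in DMSO and 721, 694 and 655 CPM after NXP800. No library of either group came near the other, and the log2 fold change was 1.68 ± 0.10 (SE), a 3.21-fold increase (adjusted p = 1.41e-09, edgeR quasi-likelihood test). *WARS1*, the tryptophanyl enzyme on chromosome 14 from 100333790 to 100376327 (minus strand), went from 270, 286 and 239 CPM to 676, 682 and 595 CPM. Its groups were as clearly apart, and its log2 fold change was 1.30 ± 0.12 (adjusted p = 1.89e-07). *GARS1*, the glycyl enzyme of cytosol and mitochondria on chromosome 7 from 30594735 to 30634033 (plus strand), went from 343, 344 and 310 CPM to 831, 813 and 800 CPM. The 3 treated libraries of *GARS1* differed little among themselves, and the log2 fold change was 1.29 ± 0.09 (adjusted p = 1.45e-08).

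*AARS1*, the alanyl enzyme, reached 872, 813 and 744 CPM from 367, 377 and 306 CPM, a log2 fold change of 1.21 ± 0.09 (adjusted p = 2.01e-08). *CARS1*, the cysteinyl enzyme, is expressed at a lower level, at 89.6, 94.2 and 84.0 CPM in DMSO and 212, 206 and 203 CPM after NXP800. Its treated libraries had an SD of 4.49 CPM, and its log2 fold change of 1.21 ± 0.07 (adjusted p = 8.98e-10) matched that of *AARS1* within their errors. The asparaginyl, methionyl, threonyl, tyrosyl and glutamyl-prolyl enzymes *NARS1* (0.84), *MARS1* (0.84), *TARS1* (0.73), *YARS1* (0.72) and *EPRS1* (0.60) increased between 1.51-fold and 1.79-fold, with adjusted p of at most 1.64e-05. The leucyl enzyme *LARS1* (0.38, adjusted p = 0.000504) and the isoleucyl enzyme *IARS1* (0.31, adjusted p = 0.000242) closed the group with the smallest increases. *IARS1* stood at 288, 287 and 266 CPM in DMSO and at 353, 353 and 337 CPM after NXP800, so that even this change of 1.24-fold left the groups apart.

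*MARS1* lies against *DDIT3* and *ARHGAP9* on the other strand of chromosome 12, and their exons overlap over 355 and 519 bp in GENCODE. The library kit keeps the strand, but the strand setting of the counting is not given in the sources used here, and the part of *DDIT3* reads in the *MARS1* value was not tested. *DDIT3* in full rose from a mean of 13.1 to 108 CPM at 6 h, while *MARS1* rose from 262 to 468 CPM.

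The promoters of these genes were read because several cytosolic synthetase genes are known targets of ATF4. RefSeq windows of 300 bases around the start site (GRCh38.p14) were held for 16 cytosolic and 14 mitochondrial members, all but *LARS1*, *VARS1*, *YARS1*, *AARS2* and *VARS2*. The core of the C/EBP-ATF response element, TGATGNAA on either strand, was found in 6 of the 16 cytosolic windows (37.5%), in 1 of the 14 mitochondrial windows (7.14%) and in 3.62% of all 35116 windows. The 6 cytosolic windows all hold the form TGATGCAA, which is in 0.866% of all windows, a form singled out after it was seen. They are shown here with the mitochondrial match, 28 bases each on the strand of the gene, 5′ to 3′, with the match in capitals, so that TTGCATCA is a match on the opposite strand.
AARS1, chr16:70289676-70289703 (minus): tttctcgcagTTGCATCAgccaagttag
CARS1, chr11:3057408-3057435 (minus): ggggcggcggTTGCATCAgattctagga
IARS1, chr9:92293693-92293720 (minus): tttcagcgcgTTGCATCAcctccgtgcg
MARS1, chr12:57488054-57488081 (plus): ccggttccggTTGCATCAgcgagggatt
NARS1, chr18:57621805-57621832 (minus): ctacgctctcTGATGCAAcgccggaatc
TARS1, chr5:33440957-33440984 (plus): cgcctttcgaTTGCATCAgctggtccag
YARS2, chr12:32756077-32756104 (minus): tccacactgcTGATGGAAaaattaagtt

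All 6 cytosolic genes with a match increased at 6 h, where 25% of all genes tested increased. The mitochondrial *YARS2*, which also holds the core, did not pass the edgeR test (0.09, adjusted p = 0.336). The share of increases among all genes with the core was not counted. The cytosolic matches began at −2 (*CARS1*), −4 (*MARS1*), −13 (*IARS1*), 3 (*TARS1*) and 15 (*NARS1*) bases from the start site, with *AARS1* farther upstream at −187. Of the 10 increased cytosolic members with a window 6 held the core, and of the 6 that did not increase 0 held it. *SARS1*, *WARS1*, *GARS1* and *EPRS1* increased without these letters in their windows, which says nothing of sites elsewhere. The E-box CACGTG, in 7.26% of all windows, was found for *IARS1* and for the mitochondrial *CARS2*, *EARS2* and *MARS2* (21.4% of 14), and the cyclic AMP element TGACGTCA, in 1.85% of all windows, for no member. A match describes the letters of a window and is no measure of binding.

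**Figure D2:**
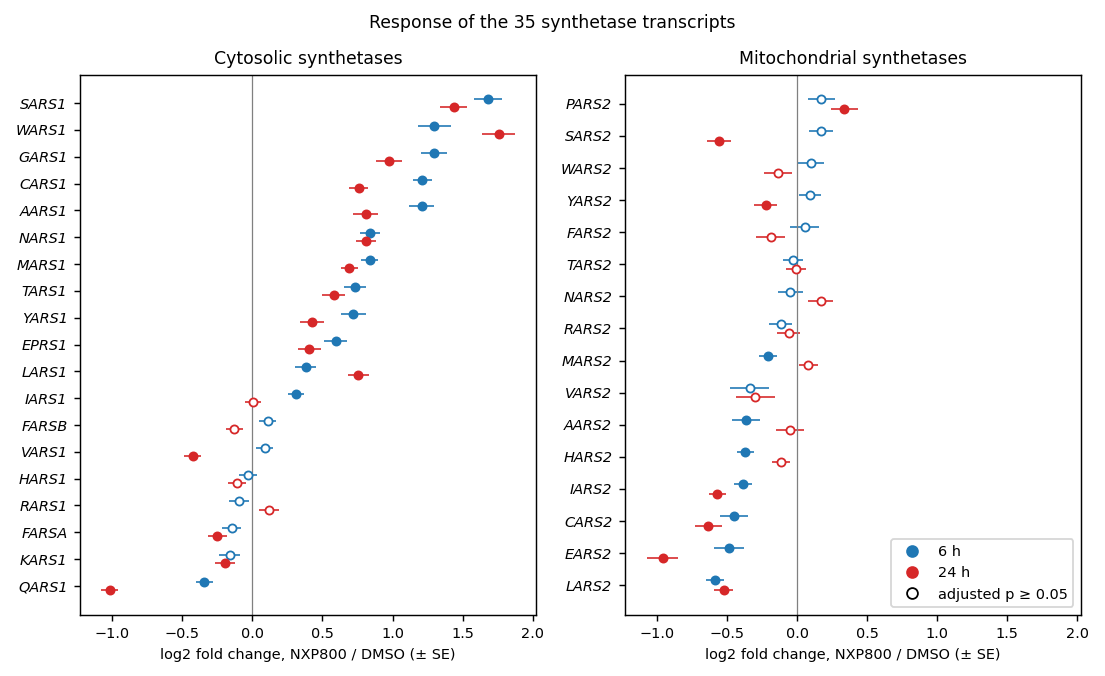
Log2 fold change of NXP800 against DMSO (x axis, ± SE from the edgeR fit of 12 libraries) for the 19 cytosolic and 16 mitochondrial members, at 6 h (blue) and 24 h (red), with open circles for an adjusted p of 0.05 or more. The upper 12 cytosolic members are filled and positive at 6 h up to 1.68, while filled mitochondrial points are negative down to −0.96, except for *PARS2* at 24 h (0.34).

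Not every cytosolic enzyme took part. *QARS1*, the glutaminyl enzyme on chromosome 3 from 49095932 to 49104757 (minus strand), decreased at 6 h, from 194, 212 and 202 CPM to 155, 165 and 159 CPM. This drop of all 3 libraries amounts to a log2 fold change of −0.34 ± 0.06 (adjusted p = 0.000211). The other 6 members did not pass the test at 6 h, with log2 fold changes of 0.11 for *FARSB*, 0.09 for the valyl enzyme *VARS1*, −0.03 for the histidyl enzyme *HARS1*, −0.09 for the arginyl enzyme *RARS1*, −0.15 for *FARSA* and −0.16 for *KARS1*. *FARSA* libraries at 6 h were 166, 170 and 171 CPM in DMSO and 156, 145 and 157 CPM after NXP800, below the controls in each case (adjusted p = 0.0812, and 0.0120 with the replicate block). The libraries of *FARSB*, the other subunit of the phenylalanyl enzyme, overlapped between groups at 6 h.

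At 24 h, 11 of the 19 cytosolic members were still increased, 57.9% where 27.5% of all genes increased, and 4 were decreased where 28.6% of all genes decreased. The median was 0.42, against −0.003 over all genes. NXP800 libraries lay wholly above DMSO for 11 cytosolic members (29% of all genes) and wholly below for 4 (30.1% of all genes). The 11 increased members were all among the 12 of 6 h, *IARS1* being the exception with a log2 fold change of 0.00 at 24 h. *FARSA*, *KARS1* and *VARS1* joined *QARS1* among the decreased members. None of the 35 members was called in opposite directions at 6 h and 24 h in the fit without the block. With the block 2 were, *FARSB* (0.11, adjusted p = 0.0411, and −0.13, adjusted p = 0.0170) and *SARS2* (0.17, adjusted p = 0.0383, and −0.56, adjusted p = 1.81e-06), both up at 6 h and down at 24 h.

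*WARS1* took the first place at 24 h. Its DMSO libraries were 387, 268 and 278 CPM, with replicate 1 above the other 2, and its NXP800 libraries were 1144, 1002 and 1008 CPM. The log2 fold change was 1.76 ± 0.12, a 3.38-fold increase (adjusted p = 4.98e-09). *SARS1* followed with 280, 208 and 224 CPM in DMSO and 649, 620 and 656 CPM after NXP800, a log2 fold change of 1.44 ± 0.10 (adjusted p = 4.57e-09). *GARS1*, at 388, 294 and 326 CPM in DMSO and 732, 637 and 615 CPM after NXP800, was just under 2-fold (0.98 ± 0.09, adjusted p = 2.19e-07). In all these genes the first DMSO library of 24 h was the highest control, yet each remained well below every treated library. The remaining increased members ranged from 0.41 for *EPRS1* to 0.81 for *NARS1* and *AARS1*.

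*QARS1* showed the largest decrease of all 35 members. Its 24 h libraries were 239, 272 and 257 CPM in DMSO and 130, 123 and 126 CPM after NXP800, a log2 fold change of −1.02 ± 0.06 (adjusted p = 1.67e-09) and the only decrease over 2-fold among the members. *VARS1* went from 453, 465 and 465 CPM to 360, 343 and 328 CPM (−0.43 ± 0.06, adjusted p = 2.10e-05). *FARSA* went from 179, 189 and 210 CPM to 158, 154 and 174 CPM, a smaller drop that kept the groups apart (−0.25 ± 0.07, adjusted p = 0.00524). *KARS1* passed the test with overlapping groups (−0.19, adjusted p = 0.0316), and this call was lost without DMSO 24 h replicate 1 (−0.18) or 3 (−0.16) and without NXP800 24 h replicate 2 (−0.10) or 3 (−0.19). *FARSB* (−0.13), *HARS1* (−0.11) and *RARS1* (0.12) did not pass at 24 h, although with the replicate block *FARSB* (adjusted p = 0.0170) and *RARS1* (adjusted p = 0.0371) did.

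**Figure D3:**
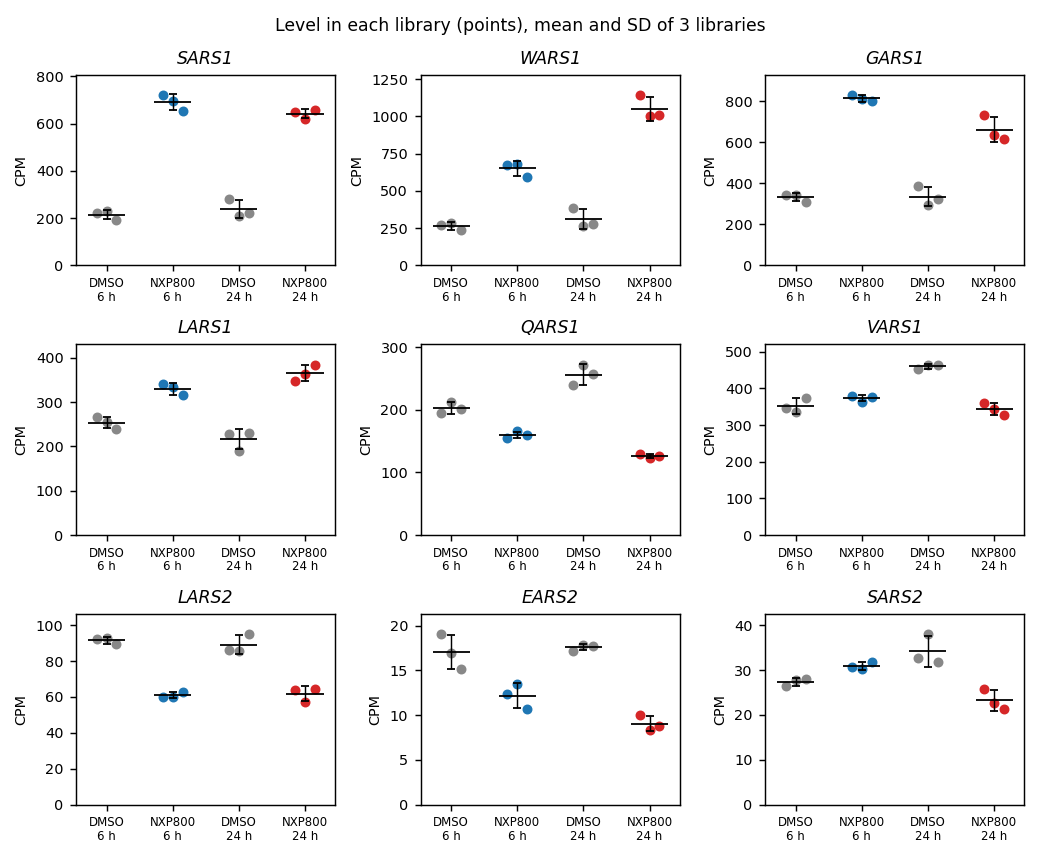
CPM (y axis, linear from 0, a different range in each panel) of 9 members in each of the 12 libraries, with the group mean and SD as bars; grey is DMSO, blue NXP800 at 6 h and red NXP800 at 24 h. *SARS1*, *WARS1*, *GARS1* and *LARS1* show treated libraries above the controls at both times, *QARS1*, *LARS2* and *EARS2* show them below, and *VARS1* and *SARS2* lie below only at 24 h.

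The cytosolic members were also counted by their place in the multi-synthetase complex and by structural class, without a test between the groups. These counts are read against 25% increased and 27.8% decreased of all genes at 6 h, and 27.5% and 28.6% at 24 h. Of the 7 enzymes of the complex 4 increased and 1 decreased at 6 h, and the median log2 fold change was 0.31, and 3 increased and 2 decreased at 24 h (median 0.12), a share of decreases of 28.6% that equals that of all genes. Of the 12 cytosolic members outside it 8 increased and 0 decreased at 6 h (median 0.79), and 8 increased and 2 decreased at 24 h (median 0.67). Class I enzymes, which share a Rossmann-fold active site, numbered 6 increased and 1 decreased of 9 at 6 h (median 0.38), and class II enzymes 5 increased and 0 decreased of 9 (median 0.73). At 24 h each class had 5 increased and 2 decreased of 9, with medians of 0.42 for class I and 0.58 for class II. The bifunctional *EPRS1*, which bears an active site of each class, was left out of this split. Between *GARS1* and *KARS1*, the enzymes that serve both compartments, *GARS1* increased at both times while *KARS1* did not increase at either.

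The mitochondrial members that passed the test mostly decreased, and 9 of the 16 did not pass at each time. At 6 h 0 of the 16 mitochondrial members increased and 7 decreased, or 43.8%, the median of their log2 fold changes was −0.16, and their treated libraries lay wholly below the controls for 7 members and wholly above for 1, *SARS2*. At 24 h 1 increased and 6 decreased (37.5%), again with a median of −0.16, and the libraries lay wholly below for 8 and wholly above for 2, *PARS2* and *MARS2*. The shares of decreased members are read against 27.8% and 28.6% of all genes, and the increases against 25% and 27.5%. Treated libraries lay wholly below the controls for 32.7% of all genes at 6 h and 30.1% at 24 h. They lay wholly above for 29.3% and 29%. No mitochondrial change reached 2-fold, a size not counted over all genes. The replicate block added *SARS2* to the increases at 6 h (0.17, adjusted p = 0.0383), making 1 in place of 0, and *NARS2* at 24 h (0.16, adjusted p = 0.0364), making 2 in place of 1. The block also placed *VARS2* among the decreases at 6 h (adjusted p = 0.000274) and 24 h (adjusted p = 0.000721), and over all genes it gave 32% increased and 33.1% decreased at 24 h. *VARS2* and *SARS2* share 63.0% and 48.2% of their exon length with other GENCODE gene models on the same strand. Whether the RefSeq models counted on hold these overlaps was not checked, so their counts may depend on how shared reads were assigned.

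*LARS2*, the mitochondrial leucyl enzyme on chromosome 3 from 45388576 to 45549407 (plus strand), showed the largest decrease of the set at 6 h. It went from 92.4, 93.1 and 89.3 CPM to 59.9, 60.0 and 62.9 CPM (−0.59 ± 0.06, adjusted p = 1.42e-06), and at 24 h from 86.4, 85.4 and 95.0 CPM to 63.9, 57.0 and 64.6 CPM (−0.52 ± 0.06, adjusted p = 3.92e-06). Both times show tight groups and a change of like size. *EARS2*, the glutamyl enzyme on chromosome 16 from 23520754 to 23557375 (minus strand), is the least abundant member per length. At 6 h it went from 19.1, 16.9 and 15.2 CPM to 12.4, 13.5 and 10.7 CPM (−0.49 ± 0.11, adjusted p = 0.00122). At 24 h it went from 17.2, 17.9 and 17.7 CPM to 10.005, 8.37 and 8.81 CPM (−0.96 ± 0.11, adjusted p = 1.87e-06), the largest mitochondrial change at either time.

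*CARS2*, the cysteinyl enzyme, went from 33.9, 39.9 and 33.2 CPM to 25.2, 26.1 and 27.1 CPM at 6 h (−0.45 ± 0.10, adjusted p = 0.000981) and from 38.3, 38.3 and 42.6 CPM to 24.4, 22.8 and 29.6 CPM at 24 h (−0.63 ± 0.10, adjusted p = 3.76e-05). *IARS2*, the isoleucyl enzyme, went from 74.1, 74.4 and 68.8 CPM to 54.1, 59.6 and 52.6 CPM at 6 h (−0.39 ± 0.06, adjusted p = 7.08e-05) and from 59.1, 59.5 and 60.3 CPM to 40.1, 40.0 and 40.6 CPM at 24 h (−0.57 ± 0.06, adjusted p = 1.26e-06). Without the block these 4 genes, *LARS2*, *EARS2*, *CARS2* and *IARS2*, were the only mitochondrial members decreased at both times, and the block added *VARS2*. *AARS2* (−0.36, adjusted p = 0.00605), *HARS2* (−0.37, adjusted p = 0.000152) and *MARS2* (−0.21, adjusted p = 0.0138) decreased at 6 h, and of these the *MARS2* call was lost without DMSO 6 h replicate 3 (−0.15). *HARS2* starts 85 bp from *HARS1* on the opposite strand of chromosome 5, and this neighbour did not pass the test at 6 h (−0.03).

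*PARS2*, the mitochondrial prolyl enzyme on chromosome 1 from 54756898 to 54764523 (minus strand), was the only mitochondrial member to increase in the fit without the block. Its 24 h libraries were 18, 18.3 and 16.4 CPM in DMSO and 24.8, 20.7 and 21.3 CPM after NXP800, a small shift with all treated libraries above the controls (0.34 ± 0.10, adjusted p = 0.00663). At 6 h it was at 13.1, 15 and 15.7 CPM in DMSO and 15.7, 17.7 and 16.0 CPM after NXP800, without a call (0.17, adjusted p = 0.145). *SARS2* (−0.56) and *YARS2* (−0.22) decreased at 24 h only. The *YARS2* call (adjusted p = 0.0251) was lost without DMSO 24 h replicate 3 (−0.17) and without NXP800 24 h replicate 1 (−0.19) or 2 (−0.17). The 6 members *FARS2*, *NARS2*, *RARS2*, *TARS2*, *VARS2* and *WARS2* did not pass at either time without the block, *TARS2*, the most abundant of the set per length, having values of −0.03 and −0.01.

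Cytosolic and mitochondrial enzymes of the same amino acid were set side by side in 14 pairs, 13 by symbol and *EPRS1* against *EARS2* for glutamate. Within these pairs the cytosolic log2 fold change at 6 h was above the mitochondrial one in 14 of 14 pairs, by a median of 0.93, and at 24 h in 13 of 14 pairs, by a median of 0.65. The widest pairs at 6 h were *CARS1* and *CARS2* (a difference of 1.66), *AARS1* and *AARS2* (1.57) and *SARS1* and *SARS2* (1.51). At 24 h they were *SARS1* and *SARS2* (1.99) and *WARS1* and *WARS2* (1.89). The exception among the 14 was valine at 24 h, where *VARS1* (−0.43) lay below *VARS2* (−0.30), and the arginine pair at 6 h differed by only 0.02. Phenylalanine and proline were not among the pairs. *FARSA* lay below *FARS2* at 6 h (−0.15 against 0.05) and at 24 h (−0.25 against −0.19), and *FARSB* lay above it at both times (0.11 and −0.13). *EPRS1*, which also charges proline tRNA, lay above *PARS2* at 6 h (0.60 against 0.17) and 24 h (0.41 against 0.34). These values describe the pairs and carry no test.

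**Figure D4:**
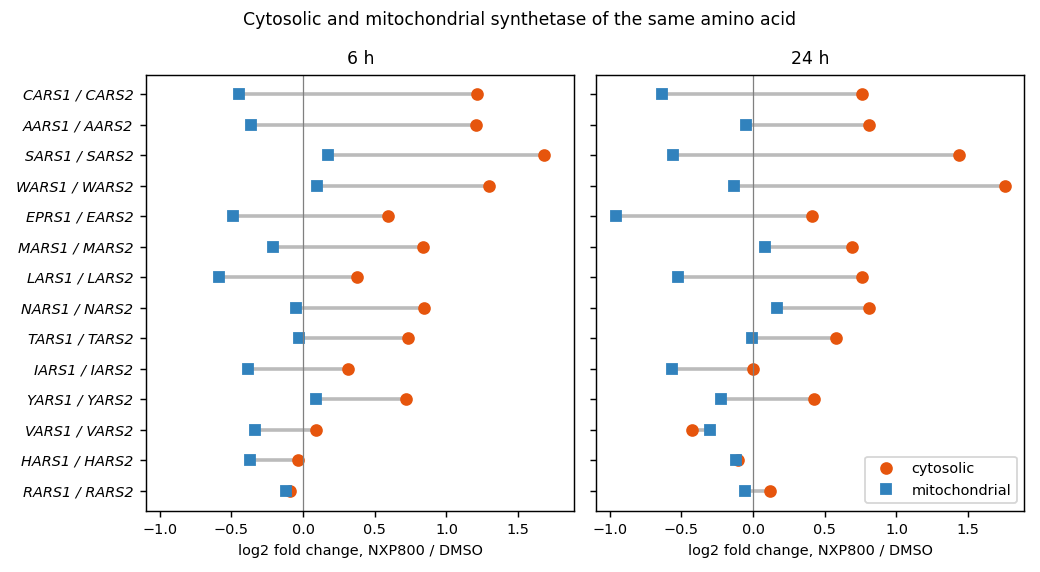
Log2 fold change of NXP800 against DMSO (x axis) of the cytosolic (orange circle) and the mitochondrial (blue square) enzyme of the same amino acid, joined by a grey line, at 6 h and 24 h for 14 pairs, without phenylalanine and proline. The circle lies to the right of the square in 14 pairs at 6 h and in 13 at 24 h, with *VARS1* and *VARS2* in the reverse order at 24 h.

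Summed over members, the cytosolic transcripts held 4530 to 4983 CPM in DMSO and 7392 to 7949 CPM after NXP800 at 6 h, and 4667 to 5200 CPM and 7027 to 7514 CPM at 24 h. The mitochondrial sum moved less and downward, from 674 to 703 CPM in DMSO to 592 to 596 CPM after NXP800 at 6 h, and from 638 to 669 CPM to 545 to 579 CPM at 24 h. The groups of each time did not overlap for either sum.

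The response at 24 h was then compared with the response at 6 h by the contrast of both, since a call at a single time does not show a difference. Among the cytosolic members 2 differences were positive and 6 negative, where 12% and 13.8% of all genes had a positive or negative difference, and among the mitochondrial members 1 was positive and 3 negative. With scaling by library size only, 2463 genes of all had a positive and 1670 a negative difference in place of 1924 and 2205, and the members' counts became 3 and 5 for cytosolic and 2 and 1 for mitochondrial genes. Libraries of 6 h and 24 h also differ in the share of reads on no gene given above, and its part in these differences was not tested. With the replicate block, which pairs libraries within a time, *GARS1* (−0.31, adjusted p = 0.00298), *YARS1* (−0.29, adjusted p = 0.00309), *SARS1* (−0.24, adjusted p = 0.0426) and *RARS1* (0.21, adjusted p = 0.0206) were added among cytosolic members. It added *AARS2* (0.31, adjusted p = 0.00301), *HARS2* (0.25, adjusted p = 0.0142) and *IARS2* (−0.18, adjusted p = 0.0493) among mitochondrial members, so that 3 of 16 mitochondrial differences were positive in place of 1. Over all genes the block gave 18.4% positive and 20.9% negative differences, so that this count is near the background.

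*LARS1* and *WARS1* gained with time. *LARS1* went from 266, 255 and 240 CPM to 340, 334 and 315 CPM at 6 h and from 227, 190 and 231 CPM to 348, 363 and 385 CPM at 24 h. Its controls were lower and its treated libraries higher at 24 h, and the responses differed by 0.38 ± 0.11 (adjusted p = 0.0164). For *WARS1* the responses of 1.30 and 1.76 differed by 0.46 ± 0.16 at the edge of the threshold (adjusted p = 0.04996), and the call was lost in 10 of 12 fits that left out a library and with DESeq2 size factors (0.45).

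The 6 h increase of *AARS1*, *CARS1* and *IARS1* was smaller by 24 h. *AARS1* was at 434, 390 and 459 CPM in DMSO and 732, 720 and 795 CPM after NXP800 at 24 h, still apart, and its response was lower by 0.40 ± 0.12 on the log2 scale (adjusted p = 0.0268), a call lost in 4 of 12 fits that left out a library. *CARS1*, at 91.9, 83.0 and 78.3 CPM and 150, 142 and 138 CPM at 24 h, differed by −0.45 ± 0.09 (adjusted p = 0.00240). *IARS1* at 24 h had 323, 323 and 319 CPM in DMSO and 311, 326 and 329 CPM after NXP800. These groups overlapped, and the difference was −0.31 ± 0.08 (adjusted p = 0.0101).

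In *QARS1*, *VARS1* and *FARSB* the 24 h response was the more negative. The difference was −0.67 ± 0.09 for *QARS1* (adjusted p = 4.65e-05), whose DMSO level was higher and whose NXP800 level was lower at 24 h than at 6 h. For *VARS1*, with 346, 335 and 375 CPM in DMSO and 380, 364 and 378 CPM after NXP800 at 6 h, it was −0.51 ± 0.09 (adjusted p = 0.000474). For *FARSB* it was −0.24 ± 0.09 (adjusted p = 0.04996), with 178, 171 and 162 CPM against 192, 181 and 178 CPM at 6 h and 150, 141 and 147 CPM against 140, 128 and 132 CPM at 24 h. The *FARSB* groups overlapped at 6 h by a narrow margin and were apart at 24 h, and the call was lost in 11 of 12 fits that left out a library.

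Among mitochondrial members *SARS2* showed the largest difference, −0.73 ± 0.12 (adjusted p = 0.000398). Its libraries were 26.4, 27.9 and 27.9 CPM in DMSO and 30.8, 30.1 and 31.8 CPM after NXP800 at 6 h, then 32.8, 38.0 and 31.7 CPM in DMSO and 25.9, 22.6 and 21.2 CPM after NXP800 at 24 h. Every treated library was above the controls at 6 h and below them at 24 h, with a call only at 24 h in the fit without the block. *EARS2* differed by −0.47 ± 0.15 (adjusted p = 0.0323), its treated level being lower at 24 h than at 6 h against a like control level, and the call was lost in 8 of 12 fits without 1 library.

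*YARS2*, the tyrosyl enzyme, had 41.9, 44.5 and 37.6 CPM in DMSO and 43.4, 45.8 and 43.0 CPM after NXP800 at 6 h, and 37.7, 37.1 and 41.4 CPM and 31.5, 31.8 and 36.2 CPM at 24 h. Overlap at 6 h gave way to separation at 24 h, and the difference was −0.32 ± 0.11 (adjusted p = 0.0475), lost in 10 of 12 fits without 1 library. *MARS2*, the methionyl enzyme, was the reverse case, with 39.9, 41.8 and 45.5 CPM in DMSO against 36.6, 36.5 and 37.1 CPM at 6 h and 39.3, 39.2 and 37.0 CPM against 41.2, 41.5 and 39.5 CPM at 24 h. Its decrease at 6 h was no longer seen at 24 h, and the difference was 0.29 ± 0.09 (adjusted p = 0.0307), lost in 8 of 12 such fits.

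**Figure D5:**
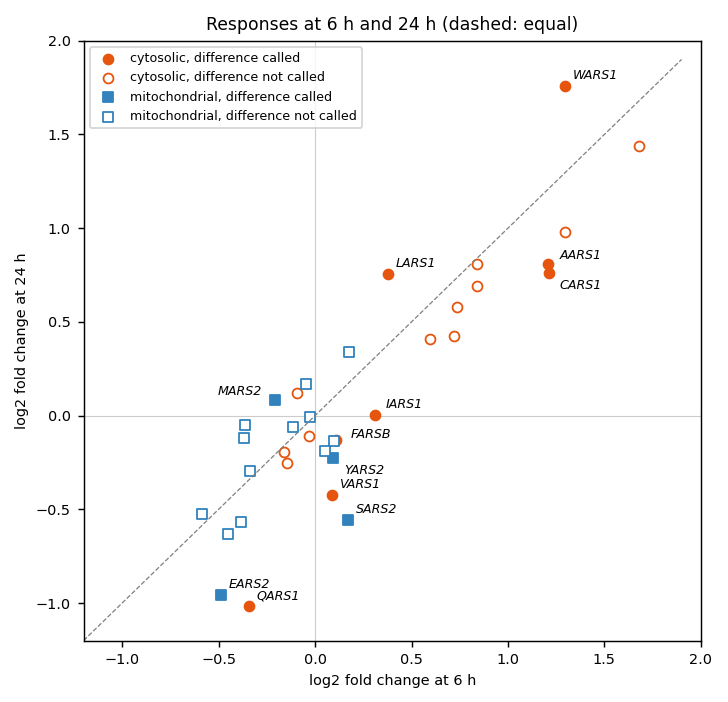
Log2 fold change at 24 h (y axis) against that at 6 h (x axis) for the 35 members, circles for cytosolic and squares for mitochondrial genes, filled and named where the difference of both responses passed an adjusted p of 0.05; the dashed line marks equal responses. *WARS1* and *LARS1* lie above the line by 0.46 and 0.38, and *QARS1* and *SARS2* below it by 0.67 and 0.73.

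The charging machinery around the synthetases did not move as a whole. Of the 3 scaffolds of the multi-synthetase complex *AIMP1* (0.30 at 6 h, 0.38 at 24 h) and *AIMP2* (0.36 and 0.40) increased at both times, while *EEF1E1* had values of −0.02 and 0.16. The delivery of charged tRNA to the ribosome was read in 7 factors, carriers and exchange factors together. Of these 0 increased and 3 decreased at 6 h, and 2 increased and 3 decreased at 24 h. The decreases were 42.9% of the factors at each time, against 27.8% and 28.6% of all genes, and the increases at 24 h were 28.6%, near the 27.5% of all genes. The mitochondrial elongation factors *TUFM* (−0.22 and −0.55) and *TSFM* (−0.49 and −0.56) decreased at both times. *EEF1A2*, an isoform of the cytosolic carrier of charged tRNA, had a value of 0.00 at 6 h and increased at 24 h (0.81). *EEF1D*, which belongs to the exchange factor of that carrier, decreased (−0.20 and −0.34).

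Mitochondria charge their glutamine tRNA without a glutaminyl synthetase, through the amidotransferase subunits *GATB*, *GATC* and *QRSL1*. None of these passed the test at either time, with values between −0.16 and 0.06, whereas *MTFMT*, which formylates the mitochondrial initiator, decreased at 24 h (−0.37). The proofreading enzyme *DTD1* increased at 24 h (0.68) and *DTD2* decreased at 6 h (−0.29), and *AARSD1* was not tested for lack of counts. The part of ambiguous reads in this lack was not tested. Of 24 genes for tRNA maturation and export 22 were tested, and 5 increased and 12 decreased at 6 h (median −0.27), 6 and 8 at 24 h (median −0.11). The increases, 22.7% and 27.3% of those tested, were near the 25% and 27.5% of all genes, and the decreases were 54.5% and 36.4% against 27.8% and 28.6%. The tRNA exporter *XPOT* (0.78 and 0.57), the splicing endonuclease subunit *TSEN15* (0.78 and 0.58) and *TRNT1*, which adds the CCA end (0.50 and 0.44), increased. *ELAC2*, which trims the 3′ end of tRNA precursors, decreased (−0.61 and −0.60), as did the endonuclease subunits *TSEN34* (−0.48 and −0.56) and *TSEN54* (−0.61 and −0.33).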

How the data were processed

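Counts per gene of 12 libraries were analysed. The authors deposited raw read counts per gene symbol. Per the submitters' processing notes and the study's methods, reads were trimmed with fastp 0.20.1, aligned with STAR 2.7.5a to hg38 and counted with HTSeq 0.12.4 on RefSeq genes (GRCh38.p14). The strand setting of the counting is not given in the sources used here. Lines naming no gene (2.73 to 8.14% of read pairs on no feature, 2.10 to 2.43% ambiguous) entered neither library sizes nor tests.

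Analyses used R 4.3.3, with edgeR 4.0.16 on limma 3.58.1. The filter filterByExpr kept 15979 of 43236 genes. TMM factors scaled the libraries. The quasi-likelihood test of edgeR was fitted to all 12 libraries, in a model of the 4 groups (common dispersion 0.00723). Contrasts were NXP800 against DMSO at 6 h, at 24 h, and their difference, adjusted by Benjamini-Hochberg over all genes tested and called below 0.05. The script was tested on simulated counts. Replicates differed beyond sampling noise (chi-square per degree of freedom 7.36 to 26.3), so none was counted as a duplicate. With 30810614 to 31947656 counts per library, spread between replicates exceeded counting error when taken over genes together. This need not hold for single members with low counts, which go down to 239 in a library.

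Replicate numbers come from the labels. Deviations of DMSO and NXP800 libraries with the same number correlated at 0.159 to 0.329 over genes, and those with different numbers at 0.0580 or less, so the numbers were taken to pair libraries, and a fit with replicate block was an alternative. Other alternatives were DESeq2 1.42.0 size factors and its Wald test, library size only, other count filters, 6 libraries per time, a threshold of 0.01 and leaving out each library.

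The members and lists were chosen with earlier results of these data known. All members are named. Values per library are given for the 3 members with the largest called change each way in each class at 6 h or 24 h and for members with a called difference. Lengths are of MANE Select transcripts, exon overlaps of GENCODE and promoter sequences of RefSeq, whose models can differ from those counted on.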

Additional observations from a re-analysis of the deposited data

Results flagged for a closer look

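For 12 members the responses at 24 h and 6 h differed by the edgeR test of the difference itself (log2 scale, 24 h minus 6 h). The differences were −0.40 for *AARS1*, −0.45 for *CARS1*, −0.24 for *FARSB*, −0.31 for *IARS1*, 0.38 for *LARS1*, −0.67 for *QARS1*, −0.51 for *VARS1* and 0.46 for *WARS1* among cytosolic members. Among mitochondrial members they were −0.47 for *EARS2*, 0.29 for *MARS2*, −0.73 for *SARS2* and −0.32 for *YARS2*.

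The calls of *CARS1*, *IARS1*, *LARS1*, *QARS1*, *VARS1* and *SARS2* held whichever of the 12 libraries was left out. That of *AARS1* was lost without DMSO 6 h replicate 3 (−0.31), NXP800 6 h replicate 1 (−0.35) or 2 (−0.40) and DMSO 24 h replicate 3 (−0.35). That of *WARS1* (0.36 to 0.65) held only without DMSO 6 h replicate 3 or DMSO 24 h replicate 1, and that of *FARSB* (−0.28 to −0.21) only without NXP800 24 h replicate 1. *EARS2* (−0.56 to −0.40) kept its call only without DMSO 6 h replicate 1, NXP800 6 h replicate 3, DMSO 24 h replicate 1 or NXP800 24 h replicate 1. *MARS2* (0.23 to 0.33) kept it only without DMSO 6 h replicate 1, DMSO 24 h replicate 1 or 2 or NXP800 24 h replicate 3, and *YARS2* (−0.39 to −0.25) only without DMSO 6 h replicate 2 or NXP800 24 h replicate 3.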

How the results depend on the processing

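The cytosolic increases numbered 12 to 13 at 6 h and 11 at 24 h whichever library was left out, and the mitochondrial decreases 6 to 8 and 5 to 7. Replicate numbers were taken to pair the libraries from the correlations given above, and the main fit does not use this pairing. Beyond the calls given beside their results the replicate block changed none. Cytosolic decreases at 6 h numbered 2 by library size only, 2 with the 6 libraries of the time point and 3 with the replicate block, and 1 to 2 with a library left out (2 without NXP800 24 h replicate 1). Mitochondrial increases numbered 1 at 6 h with 6 libraries and with the replicate block, and at 24 h 2 by library size only, 2 with the replicate block and 1 to 2 with a library left out (2 without NXP800 24 h replicate 1).

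Positive cytosolic differences numbered 1 with DESeq2 size factors, 0 below 0.01, and 1 to 2 with a library left out, 2 only without DMSO 6 h replicate 3 or DMSO 24 h replicate 1, and negative ones 3 below 0.01. Positive mitochondrial differences numbered 2 by library size only, 2 with at least 10 counts in every library, 3 with the replicate block, 0 below 0.01 and 0 to 2 with a library left out. Negative ones numbered 1 by library size only, 1 below 0.01 and 1 to 3 with a library left out. The libraries behind the losses in these ranges are those named above for each member, and those behind gains were not listed.

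With a library left out the cytosolic median ranged from 0.53 to 0.63 (6 h) and from 0.36 to 0.51 (24 h), and it was 0.51 at 24 h by library size only. The mitochondrial median at 6 h was −0.15 with DESeq2 size factors, −0.15 by library size only, −0.13 with 6 libraries, −0.14 by the DESeq2 Wald test and −0.18 to −0.13 with a library left out. At 24 h it was −0.074 by library size only, where the median of all genes rose to 0.09, and −0.20 to −0.13 with a library left out.

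Signs turned only in members without a call. *HARS1* at 6 h was 0.00053 with 6 libraries. At 24 h *AARS2* was 0.042 and *RARS2* 0.029 by library size only. *TARS2* was 0.0048 at 6 h with 6 libraries, and at 24 h 0.0036 with DESeq2 size factors, 0.085 by library size only, 0.012 without a filter, 0.014 with 6 libraries and 0.0032 by the Wald test. With a library left out the ranges crossed 0 for *IARS1* (−0.014 to 0.028), *AARS2* (−0.19 to 0.053) and *TARS2* (−0.071 to 0.054) at 24 h and for *FARS2* (−0.010 to 0.12) and *TARS2* (−0.071 to 0.0029) at 6 h.

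Members without a call gained one without 1 library for *FARSB* (0.14, NXP800 24 h replicate 2), *KARS1* (−0.16, NXP800 24 h replicate 1) and *VARS2* (−0.45 to −0.34, DMSO 6 h replicate 1 or 2, NXP800 6 h replicate 3 or DMSO 24 h replicate 2) at 6 h. At 24 h the same held for *FARSB* (−0.17), *HARS1* (−0.18), *NARS2* (0.26) and *WARS2* (−0.25) without NXP800 24 h replicate 1, and for *VARS2* (−0.30) without DMSO 6 h replicate 3. By settings other than a left-out library, the 24 h calls of *KARS1* and *YARS2* were lost by library size only, without a filter and with 6 libraries, and the 6 h call of *MARS2* without a filter. Calls at 6 h were gained for *KARS1* by library size only, and for *KARS1*, *FARSB* and *SARS2* with 6 libraries. *VARS2* gained a call without a filter at 6 h and at 24 h. *RARS1* and *NARS2* gained one at 24 h by library size only. Differences were lost for *FARSB* and *WARS1* with DESeq2 size factors, for *FARSB*, *EARS2* and *YARS2* by library size only and for *FARSB*, *MARS2* and *YARS2* without a filter. The DESeq2 Wald test changed no call of a member at 6 h or 24 h and none of the called differences. Members that gained a called difference were listed by gene only for the replicate block. The cause of these changes was not tested.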
